A study of Mus musculus with 335 samples.

Results

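Lung tissue taken beside tumours in MMTV-PyMT mice was compared with lung from mice that carry no oncogene. The comparison used 9 of the 335 RNA-seq samples of the series, chosen by their labels: 5 tumour-adjacent lungs and 4 healthy lungs, 1 library per animal. The tumour-adjacent lungs came from FVB mice with the MMTV-PyMT transgene, in which a mammary promoter drives the polyoma middle T oncogene and mammary tumours form that spread to the lung; the labels call this tissue tumour adjacent and title it LungPrecond. The healthy lungs came from FVB wild-type mice with no oncogenic driver, titled LungUncond. No sample was labelled as treated, all were snap frozen tissue, and ages, sexes and the distance from a metastasis were not given in the sources used here. None of the 5 animals has another sample in the series, so the tumour load of their lungs could not be read from a matched metastasis.

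Lung is a tissue of air sacs lined by flat type 1 and surfactant-making type 2 epithelial cells, wrapped in a dense capillary bed, with club and ciliated cells in the airways and resident macrophages and natural killer (NK) cells. In mouse models of breast cancer, a lung can change before or beside a metastasis: neutrophils and monocytes are known to gather, matrix is remodelled and calcium-binding proteins such as S100a8 and S100a9 are induced. NK cells are known to kill disseminated tumour cells, and the endothelium is the barrier those cells cross. The levels below are RPKM, reads scaled to transcript length and library size, as deposited. Differences are tumour-adjacent minus healthy on the log2(RPKM + 1) scale with their standard error, which understates the change of genes near 1 RPKM. A gene is said to have risen or fallen where its adjusted p in limma (Benjamini-Hochberg over the 12054 genes tested) is under 0.05.

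Both groups were lung by their markers. The 15 alveolar type 2 genes summed to 9581 to 23441 RPKM in tumour-adjacent lungs and 11024 to 17032 RPKM in healthy lungs, against a median of 277 RPKM in the 18 PyMT FVB primary tumours of the series. The 26 mammary epithelial and milk genes in the table summed to 704 to 725 RPKM in tumour-adjacent lungs and 632 to 703 RPKM in healthy lungs, against 13902 RPKM in the tumours.

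Several features of the libraries run alongside the groups. All 5 tumour-adjacent libraries have codes that begin with RNA and all 4 healthy ones have codes that begin with KS, so that code prefix and group cannot be told apart within lung. Tumour-adjacent libraries held 15056468 to 19094380 counted reads and healthy ones 23215042 to 28594187. The Y-linked gene Ddx3y had 16.3, 17.2, 0, 0 and 14.8 RPKM in tumour-adjacent animals 1 to 5, against at most 0.00628 RPKM in the healthy lungs, and the X-inactivation RNA Xist was near 0 in the same 3 animals. Animal 5, named BL5Rf, was among these 3 although its name ends in f. Animal 5 also stood apart in cardiac muscle genes and in club cell genes, which summed to 145106 RPKM in it, 37313 to 73364 RPKM in the other 4 and 39393 to 84201 RPKM in healthy lungs. The summed alveolar macrophage genes were low in animals 3 and 5, and the summed neutrophil genes were high in animals 2 and 5. Animal 5 nonetheless had less RNA of the neutrophil gene S100a8 than healthy animals 2 to 4. The part of code prefix, depth and sex in the differences was not tested beyond the values given with them.

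Of the 12054 genes tested, 1639 were called (13.6%), 433 higher (3.59%) and 1206 lower (10.0%) in tumour-adjacent lung, and the median difference of all genes tested was -0.04. All 5 tumour-adjacent libraries lay above all 4 healthy ones for 587 genes (4.87%) and below them for 1396 genes (11.6%). Counts of list members below are to be set beside these shares over all genes. Differences were mostly small: 13 genes rose and 93 fell at least 2-fold. When each library was rescaled to the median ratio over genes, which moved the median difference by 0.04, 684 genes were higher and 1012 lower, so the share of higher calls was 40.3% instead of 26.4%. Without animal 5 there were 625 higher and 1080 lower calls, of which 1364 were among the 1639. Without the 3 libraries with Y-linked RNA, which leaves 2 animals, there were 47 higher and 117 lower.

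The code prefix could be set beside the lung difference in PyMT FVB primary tumours and in lung metastases. Among PyMT FVB primary tumours, 5 libraries have RNA codes and 8 have KS codes, and that contrast called 700 genes (5.81%). The deposited column names of the 8 KS-coded tumours all hold PTAX and those of the 5 RNA-coded ones all hold PT. Code prefix and this label cannot be told apart in the tumour contrast. Of the 1639 genes called in lung, 1334 (81.4%) had the same sign in it. Both contrasts had more lower than higher calls, and the same share over all genes tested is not given here. Called in both were 237 genes, all with the same sign, which are 14.5% of the lung calls and 33.9% of the prefix calls. In lung metastases, 5 animals with RNA codes against 8 with KS codes gave no call in limma (0.00%, with 2211 genes at an unadjusted p under 0.05), and 66.2% of the genes called in lung had the same sign. With the prefix as a term, estimated from the primary tumours, 18 genes were higher and 45 lower in tumour-adjacent lung. That fit takes its spread from tumours as well as lungs and adds the error of the prefix estimate. A call lost in it need not mean a smaller difference. The difference of RNA-coded minus KS-coded tumours is called the tumour prefix value and is given for some of the genes and lists.

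**Figure D1:**
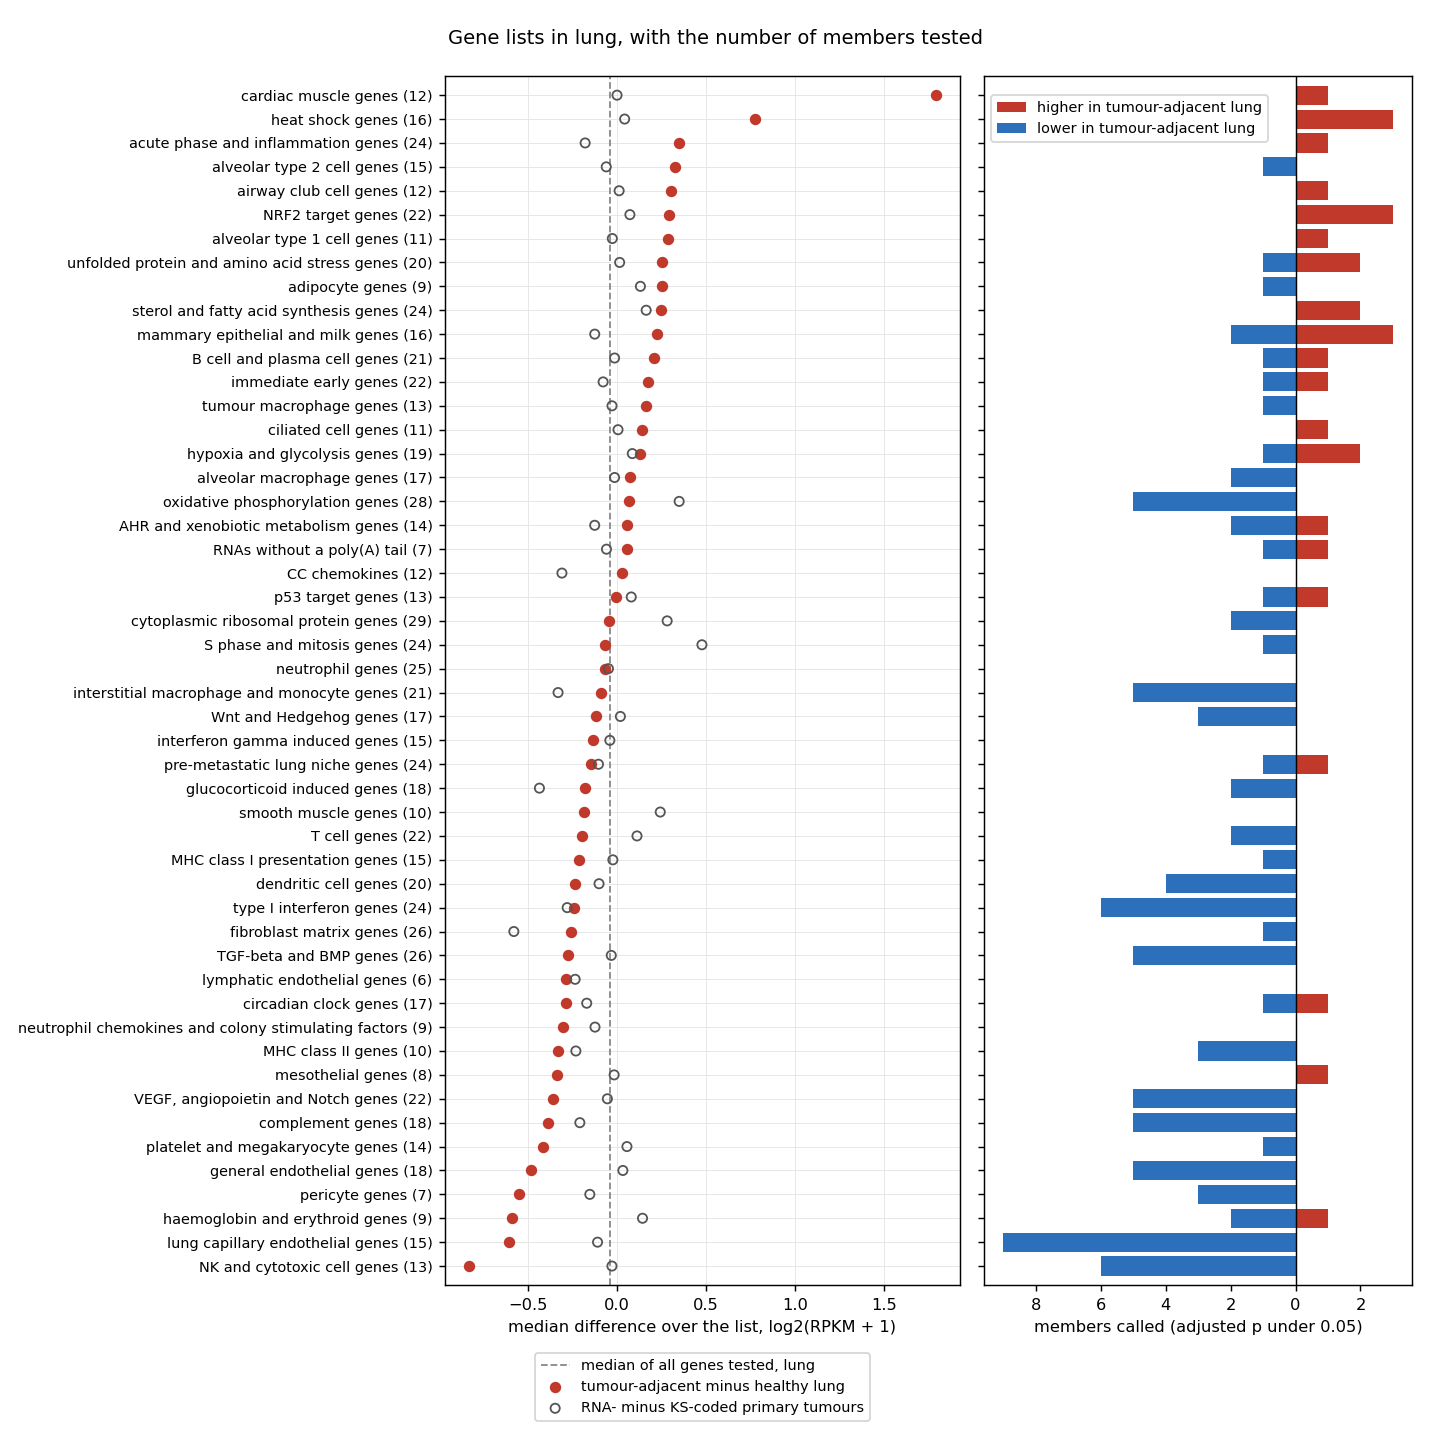
Median difference of each gene list with at least 6 members tested (left, log2(RPKM + 1); filled, tumour-adjacent minus healthy lung; open, RNA-coded minus KS-coded primary tumours; dashed, all genes tested in lung) and number of members called (right). NK, capillary, haemoglobin, pericyte and general endothelial genes have the lowest lung medians, from -0.84 to -0.49, heat shock genes lie at 0.77, and cardiac muscle genes, some of which passed the level filter through tumour-adjacent lung, at 1.79.

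Among the largest falls in tumour-adjacent lung were those of the Ifi200 genes, a cluster of neighbouring interferon-inducible genes on chromosome 1 whose proteins carry DNA-binding HIN domains and, in most members, a pyrin domain. All 9 members tested fell, against 10.0% of all genes tested: Aim2, Pyhin1, Pydc3, Ifi204, Mndal, Mnda, Ifi203, Ifi202b and Ifi205. They fell by 0.63 to 2.90, with a median difference of -0.92. Mndal and Pydc3 passed the level filter through healthy lung only, since no tumour-adjacent lung reached 1 RPKM. Their falls therefore add no support to the count. Apart from Ifi204 and Ifi203, which the naming rule gave, these genes, Dusp23 and Tagln2 were picked out after their values were seen. Ifi204, which encodes p204, a nuclear and cytosolic DNA sensor, had 3.18, 2.01, 2.31, 1.85 and 1.80 RPKM in tumour-adjacent lungs, against 21.3, 22.9, 20.3 and 27.5 RPKM in healthy lungs. The groups were far apart, with a mean in healthy lung 10.3 times that in tumour-adjacent lung and a difference of -2.90 ± 0.13 (limma, adjusted p = 1.4e-05), the largest fall of the genes eligible under the naming rule. Ifi203 had 3.77, 3.07, 3.62, 2.63 and 2.45 RPKM in tumour-adjacent lungs, against 10.6, 14.0, 14.9 and 9.92 RPKM in healthy lungs, a difference of -1.69 ± 0.14 (limma, adjusted p = 0.00071).

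The rest of the cluster was expressed at lower levels. Mndal had 0.308, 0.339, 0.197, 0.271 and 0.252 RPKM in tumour-adjacent lungs, against 1.68, 2.12, 2.53 and 1.01 RPKM in healthy lungs, and Pydc3 had 0.419 to 0.774 RPKM in tumour-adjacent lungs, against 2.09 to 3.06 RPKM in healthy lungs. Aim2, which encodes the cytosolic DNA sensor of the AIM2 inflammasome, had 0.904, 2.10, 0.702, 0.765 and 0.683 RPKM in tumour-adjacent lungs, against 2.45, 2.69, 2.96 and 2.82 RPKM in healthy lungs. Its highest tumour-adjacent value, in animal 2, lay just under the lowest healthy one. The differences were -1.13 ± 0.15 for Mndal, -1.16 ± 0.11 for Pydc3 and -0.92 ± 0.17 for Aim2 (limma, adjusted p = 0.0036, 0.00088 and 0.011). For 7 of the 9 genes every tumour-adjacent lung was below every healthy one, Mndal and Pydc3 among them, against 11.6% of all genes tested. Mnda and Pyhin1 were the exceptions. Dusp23, a phosphatase gene, also fell (-1.01 ± 0.15, limma, adjusted p = 0.0049). It is the next tested protein-coding gene on the Aim2 side, with genes between them that were not tested. Tagln2 (0.10), further out on that side, was not called.

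All 9 Ifi200 genes also had negative values in the tumour prefix contrast, from -1.14 for Ifi204 to -0.06 for Pydc3, with 1 call. With the prefix term 3 of the 9 remained called in lung, Ifi204 at -1.76 (limma, adjusted p = 0.022), Ifi203 at -1.19 (limma, adjusted p = 0.028) and Pydc3 at -1.10 (limma, adjusted p = 1.6e-05), while Ifi205, Mnda and Ifi202b turned to values of 0.040, 0.24 and 0.18. Without the 3 libraries with Y-linked RNA 5 of the 9 were called and all 9 were negative. Leaving out 1 library at a time kept 5 of the 9 called throughout, and Mnda, Pyhin1, Ifi202b and Ifi205 lost their call in some fits, with limma adjusted p up to 0.081 (without healthy animal 2), 0.13 and 0.06 (without healthy animal 3) and 0.058 (without healthy animal 2).

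**Figure D2:**
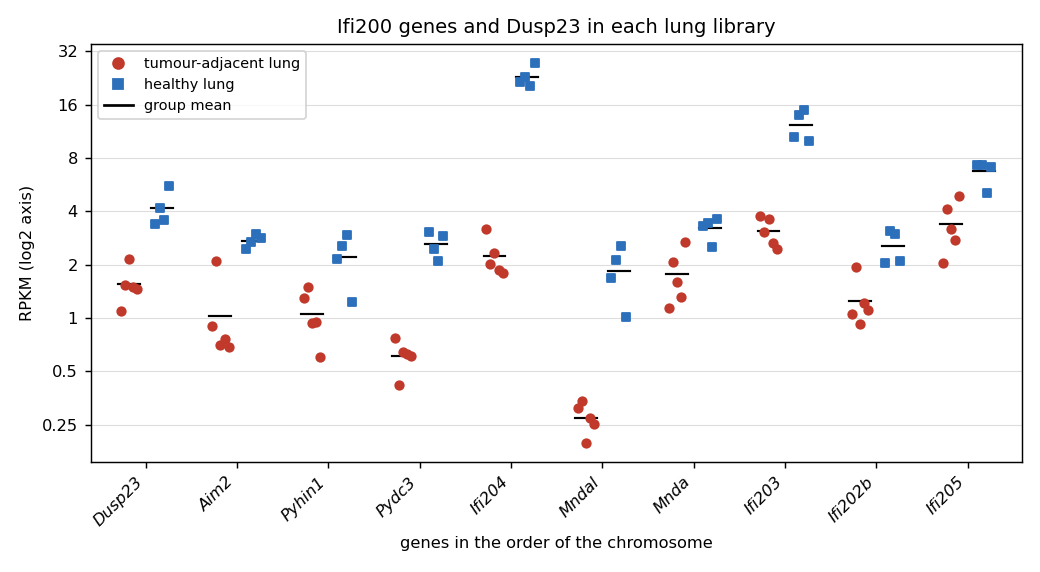
RPKM of the 9 Ifi200 genes tested and of Dusp23, the next tested gene, in each library, in chromosomal order. The axis is log2, with circles for tumour-adjacent lung, squares for healthy lung and bars for group means. The circles of Ifi204 lie between 1.80 and 3.18 RPKM and its squares between 20.3 and 27.5 RPKM, and circles and squares overlap only for Mnda and Pyhin1.

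Promoter windows of 250 bases before to 50 after the start site were available from RefSeq (GRCm38.p6) for 8 of the 9 Ifi200 genes. The gene without one was Ifi204. The interferon response element was spelled GAAA, any 2 bases and GAAA and searched on both strands. It was present in 6 of the 10 windows of the 8 genes, in 5 of the 8 genes, and in 3.44% of all 32851 windows. Aim2, Pyhin1 and Ifi202b had windows without it. Windows are shown, with the element in capitals, for genes chosen from the 5 that hold it. They are Pydc3 (listed in RefSeq as Ifi208, chr1:173673415-173673714, plus strand), Mndal (chr1:173880138-173880437, minus strand) and Mnda (listed as Ifi211, chr1:173912997-173913296, minus strand).
Pydc3: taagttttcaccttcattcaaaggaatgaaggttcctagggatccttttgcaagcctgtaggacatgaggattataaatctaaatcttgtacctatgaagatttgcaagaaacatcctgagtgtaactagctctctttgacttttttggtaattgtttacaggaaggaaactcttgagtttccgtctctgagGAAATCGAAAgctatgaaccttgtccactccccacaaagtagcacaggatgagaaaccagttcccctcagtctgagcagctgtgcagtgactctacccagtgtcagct
Mndal: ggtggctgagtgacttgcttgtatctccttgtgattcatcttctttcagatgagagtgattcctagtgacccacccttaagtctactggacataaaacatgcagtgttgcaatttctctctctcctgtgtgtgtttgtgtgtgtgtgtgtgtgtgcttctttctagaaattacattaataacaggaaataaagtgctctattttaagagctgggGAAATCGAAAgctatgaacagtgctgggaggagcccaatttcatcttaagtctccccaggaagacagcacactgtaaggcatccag
Mnda: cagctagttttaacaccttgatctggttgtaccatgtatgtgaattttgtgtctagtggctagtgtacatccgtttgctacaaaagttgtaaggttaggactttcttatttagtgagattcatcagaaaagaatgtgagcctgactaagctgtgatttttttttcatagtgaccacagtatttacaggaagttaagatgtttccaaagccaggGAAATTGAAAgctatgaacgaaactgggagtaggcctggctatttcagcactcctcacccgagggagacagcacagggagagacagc
The element begins 58, 36 and 37 bases before the start site in Pydc3, Mndal and Mnda. In each window shown it is followed by the same 9 bases, gctatgaac. The window of Ifi205, not shown, holds 2 elements, followed by gctatgaac and by tcagttact. A match to the element is a description of the window, and binding was not measured.

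Of 24 type I interferon genes tested, 6 fell and none rose, with a median of -0.25. The list had 3 lower without tumour-adjacent animal 4, healthy animal 2 or healthy animal 3, up to 7 without animal 5, and 1 without the 3 libraries with Y-linked RNA. Mx2, an antiviral GTPase gene, had 1.12, 1.07, 0.784, 1.03 and 1.04 RPKM in tumour-adjacent lungs, against 2.25, 1.86, 2.73 and 1.74 RPKM in healthy lungs (-0.64 ± 0.11, limma, adjusted p = 0.0072). Rsad2, which encodes viperin, had 0.817 to 1.24 RPKM in tumour-adjacent lungs, against 1.28, 5.26, 3.37 and 2.16 RPKM in healthy lungs. Its call (limma, adjusted p = 0.034) was lost when any of tumour-adjacent animals 1 to 4 or healthy animals 2 and 3 was left out (limma, adjusted p = 0.055 to 0.094). The classical members Ifit1 (0.14), Ifit3 (0.24) and Isg15 (-0.31) were not called, and no member of 15 interferon gamma induced genes was in limma (1 at an unadjusted p under 0.05) or in limma's voom. The tumour prefix contrast had a median of -0.28 for the type I list, and with the prefix term no member was called in limma (0 at an unadjusted p under 0.05).

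Of 16 heat shock genes tested, 3 rose in tumour-adjacent lung and none fell, 15 had a positive difference and the median was 0.77. Hspa1b, one of a pair of inducible HSP70 genes, had 167, 53.8, 108, 141 and 33.9 RPKM in tumour-adjacent lungs, against 32.9, 13.5, 9.74 and 12.4 RPKM in healthy lungs. Its mean was 5.88 times that of healthy lung (2.42 ± 0.50, limma, adjusted p = 0.015), and the lowest tumour-adjacent animal, animal 5, was only just above the highest healthy one, animal 1. Hspa1a, a near-identical copy whose reads may be shared with Hspa1b, differed by 2.39 ± 0.54 (limma, adjusted p = 0.021), and Hspa1l, a neighbour chosen after its values were seen, by 1.21 ± 0.26 (limma, adjusted p = 0.019). Hspa1a lost its call without tumour-adjacent animal 4 (adjusted p = 0.052) or healthy animals 2, 3 or 4 (adjusted p up to 0.063), and Hspa1l without healthy animal 3 (adjusted p = 0.052), all in limma. Dnajb1, a DnaJ co-chaperone of HSP70, had 106, 51.7, 75.9, 111 and 34.2 RPKM in tumour-adjacent lungs, against 25.4, 26.8, 21.3 and 24.6 RPKM in healthy lungs (1.46 ± 0.31, limma, adjusted p = 0.018).

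The remaining chaperones were not called, and their order across animals was different. Hspa8, the constitutive HSC70 gene, had 700.1, 577, 731, 887 and 1054 RPKM in tumour-adjacent lungs, against 675, 371, 349 and 522 RPKM in healthy lungs (0.74 ± 0.23, limma, adjusted p = 0.059). Hspb1 had 169, 92.5, 203, 239 and 469.8 RPKM in tumour-adjacent lungs, against 111, 69.1, 64.3 and 129.5 RPKM in healthy lungs (1.19 ± 0.41, limma, adjusted p = 0.084). Animal 5 was thus lowest for Hspa1b and Dnajb1 and highest for Hspa8 and Hspb1. Hsf1, which encodes the factor that drives these genes, was not called (-0.27). In the tumour prefix contrast Hspa1b was at -0.43 and the list median was 0.04, and with the prefix term Hspa1b stayed called at 2.85 (limma, adjusted p = 0.015). Dnajb1 lost its call with the prefix term (adjusted p = 0.14) and without healthy animal 3 (adjusted p = 0.054), both in limma. Leaving out 1 library at a time gave 1 call in the list without healthy animal 3 and up to 6 without healthy animal 1.

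**Figure D3:**
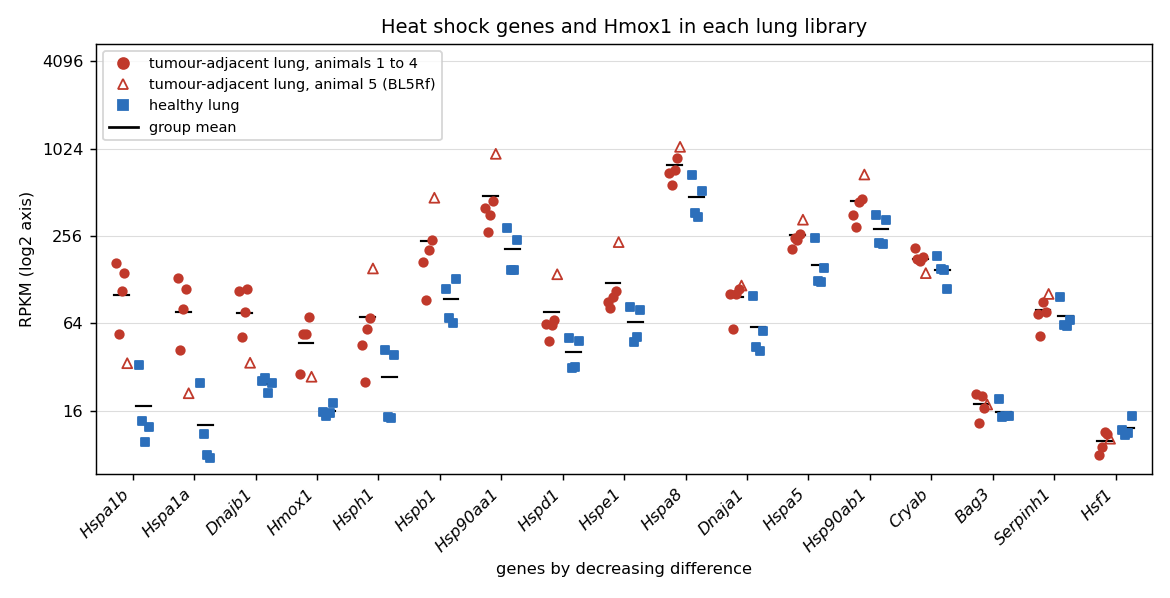
RPKM of the 16 heat shock genes tested and Hmox1 in each library (log2 axis; filled circles, tumour-adjacent animals 1 to 4; open triangles, animal 5; squares, healthy lung; bars, group means), by decreasing difference. Groups are separate for Hspa1b, Dnajb1 and Hmox1; the triangle of animal 5 is lowest for Hspa1b, at 33.9 RPKM, and highest for Hspa8, at 1054 RPKM.

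The heat shock element GAANNTTC, searched on both strands, was present in 9 of the 16 promoter windows of the 11 heat shock genes that have one, in 8 of the 11 genes, and in 7.86% of all windows. The window of Hspa1b (chr17:34959189-34959488, minus strand, GRCm38.p6), the called heat shock gene with the largest rise, is shown with the element in capitals, beginning 104 bases before the start site.
Hspa1b: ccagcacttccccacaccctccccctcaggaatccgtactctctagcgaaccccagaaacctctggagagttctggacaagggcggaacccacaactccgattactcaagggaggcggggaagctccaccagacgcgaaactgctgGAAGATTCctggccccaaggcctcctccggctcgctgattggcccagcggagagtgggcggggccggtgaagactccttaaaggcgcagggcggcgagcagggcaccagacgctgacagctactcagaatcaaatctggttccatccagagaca

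Hmox1, which encodes the haem-degrading enzyme haem oxygenase 1, had 28.4, 54.2, 53.6, 71.3 and 27.4 RPKM in tumour-adjacent lungs, against 15.5, 14.7, 15.3 and 18.0 RPKM in healthy lungs. Every tumour-adjacent value was above every healthy one (1.41 ± 0.27, limma, adjusted p = 0.012), and the tumour prefix value was -0.01. Of 22 targets of NRF2, the factor of the antioxidant response, 3 rose and none fell with a median of 0.29: Hmox1, the cystine transporter gene Slc7a11 (0.62 ± 0.13) and Srxn1, the sulfiredoxin gene (0.55 ± 0.16). Srxn1 lost its call in every leave-out but that of tumour-adjacent animal 1 (limma, adjusted p up to 0.12). With the prefix term no member of the list was called in limma (4 at an unadjusted p under 0.05), with Hmox1 at 1.43 (limma, adjusted p = 0.53). The difference of Hmox1 thus hardly moved while its call was lost. Among 20 genes of the unfolded protein and amino acid response, Dnajb9 (0.77 ± 0.17) and Ddit3 (0.58 ± 0.12) rose and 1 gene fell. Of 22 immediate early genes tested 1 rose, Fos, 1 fell, Ctgf, and 9 were negative, with a median of 0.17. Fos had 35.8, 47.4, 76.5, 89.1 and 9.90 RPKM in tumour-adjacent lungs, against 8.03, 12.5, 11.3 and 8.98 RPKM in healthy lungs (1.93 ± 0.53, limma, adjusted p = 0.042), and Egr1 had 35.7, 46.6, 66.6, 85.7 and 5.91 RPKM in tumour-adjacent lungs, against 4.74, 13.2, 8.71 and 5.24 RPKM in healthy lungs (2.15 ± 0.66, limma, adjusted p = 0.059). Animals 1 to 4 were all above the healthy lungs for both genes and animal 5 lay among the healthy values. The call of Fos was lost whenever any library but animal 5 was left out (limma, adjusted p = 0.069 to 0.093).

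NK and cytotoxic genes had the lowest median of all lists shown, -0.84, with 6 of 13 members down and none up. Klrb1c, which encodes the NK1.1 receptor, had 1.49, 1.50, 1.78, 1.77 and 1.35 RPKM in tumour-adjacent lungs, against 4.53, 4.17, 4.02 and 3.07 RPKM in healthy lungs (-0.93 ± 0.10, limma, adjusted p = 0.0021). Ncr1, the gene of the activating receptor NKp46, had 1.61, 1.49, 2.41, 2.67 and 0.986 RPKM in tumour-adjacent lungs, against 5.88, 6.17, 5.80 and 2.78 RPKM in healthy lungs. Gzma, which encodes the granule protease granzyme A, had 1.90, 1.68, 3.34, 4.17 and 0.794 RPKM in tumour-adjacent lungs, against 9.86, 11.9, 11.8 and 5.59 RPKM in healthy lungs. No tumour-adjacent value reached a healthy one for these 3 genes, and the differences of Ncr1 and Gzma were -1.11 ± 0.23 and -1.72 ± 0.32 (limma, adjusted p = 0.016 and 0.01). Without healthy animal 3 the call of Ncr1 was lost (limma, adjusted p = 0.052). The receptor genes Klrd1, Klrk1 and Klre1 also fell, by 0.58 to 0.99, and each lost its call without healthy animal 3 among others (limma, adjusted p up to 0.1). In bulk tissue, fewer cells of a type and less RNA per cell cannot be told apart.

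The perforin gene Prf1 had 1.08, 0.958, 1.91, 2.20 and 0.549 RPKM in tumour-adjacent lungs, against 2.38, 9.04, 11.0 and 2.06 RPKM in healthy lungs, and was not called (limma, adjusted p = 0.06). The chemokine gene Ccl5 (-0.40) and the granule gene Nkg7 (-0.39), shared by NK cells and cytotoxic T cells, were not called either. The summed list had 47.9, 54.2, 80.9, 53.6 and 22.3 RPKM in tumour-adjacent lungs, against 75.1, 101, 115 and 59.1 RPKM in healthy lungs, so animal 3 was above 2 healthy lungs. The tumour prefix contrast had a list median of -0.03, and with the prefix term Klrb1c (-0.86) and Ncr1 (-1.12) remained called and Gzma (-1.29) was not. Without the 3 libraries with Y-linked RNA 1 member, Klrb1c, was called, and the median was -0.53. Leaving out 1 library at a time gave 2 (without healthy animal 3) to 7 (without healthy animal 4) members lower.

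Of 22 T cell genes, 2 fell, the signalling adaptor gene Lat and the transcription factor gene Tcf7, with a list median of -0.20. The share of all genes tested that fell was 10.0%. Both calls were lost in most leave-outs. The limma adjusted p reached 0.083 for Lat without tumour-adjacent animal 4 and 0.082 for Tcf7 without healthy animal 3. Of 21 B and plasma cell genes, 1 rose and 1 fell; 19 had positive values and the median was 0.21. Btla, an inhibitory receptor gene of lymphocytes and dendritic cells that was chosen after its values were seen, fell: it had 1.66, 2.56, 3.09, 3.14 and 3.97 RPKM in tumour-adjacent lungs, against 8.75, 7.50, 7.79 and 7.22 RPKM in healthy lungs (-1.21 ± 0.16, limma, adjusted p = 0.0036). Among 20 dendritic cell genes 4 fell and none rose, with 1 lower without tumour-adjacent animal 4, healthy animal 2 or healthy animal 3. Clec9a, which encodes a receptor for dead cells on cross-presenting dendritic cells, had 5.38, 4.97, 7.97, 5.35 and 4.38 RPKM in tumour-adjacent lungs, against 10.3, 11.2, 10.9 and 21.2 RPKM in healthy lungs (-1.09 ± 0.22, limma, adjusted p = 0.014). Both kept their call with the prefix term.

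The MHC class II list was split. H2-Aa, the gene of an alpha chain, had 43.8, 43.3, 24.3, 29.7 and 30.8 RPKM in tumour-adjacent lungs, against 85.6, 90.9, 92.9 and 63.3 RPKM in healthy lungs, and H2-Ab1, its beta chain partner, had 37.4, 47.2, 31.0, 31.8 and 33.0 RPKM in tumour-adjacent lungs, against 69.9, 79.9, 75.0 and 61.3 RPKM in healthy lungs. Both fell, by 1.27 and 0.98, and H2-Ob fell by 0.84. Cd74, the invariant chain that travels with them, was not called at 621, 740.5, 439.9, 514 and 402 RPKM in tumour-adjacent lungs and 380.0, 535, 494 and 324 RPKM in healthy lungs. H2-Aa and H2-Ab1 were lower in RNA-coded than in KS-coded tumours too, at -1.76 and -1.49, neither called, and with the prefix term their lung values turned to 0.49 and 0.51. Of 18 complement genes 5 fell, among them C1qa, C1qb and C1qc, which macrophages make, by 0.53 to 0.85, with tumour prefix values of -0.48 to -0.78. Without tumour-adjacent animal 4 or healthy animal 2 the list had 2 calls, and C1qb was not called (limma, adjusted p = 0.088 and 0.091). Hc, the gene of complement C5, had a tumour prefix value of -0.10, and its levels were 7.36 to 11.3 RPKM in tumour-adjacent lungs, against 17.5 to 43.3 RPKM in healthy lungs (-1.36 ± 0.26, limma, adjusted p = 0.011).

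Of 15 genes of lung capillary endothelium 9 fell and none rose, with a median of -0.61, and of 18 general endothelial genes 5 fell, with a median of -0.49. Hpgd, which encodes the prostaglandin-degrading enzyme of lung, had 142, 122, 164, 141 and 114 RPKM in tumour-adjacent lungs, against 291, 289, 277 and 400.1 RPKM in healthy lungs (-1.19 ± 0.14, limma, adjusted p = 0.0027). Plvap, the gene of the diaphragms of fenestrae and caveolae, had 85.6, 65.1, 129, 89.8 and 91.6 RPKM in tumour-adjacent lungs, against 148, 178, 178 and 153 RPKM in healthy lungs (-0.85 ± 0.17, limma, adjusted p = 0.013). Summed over the capillary list the levels were 556, 488, 717, 575 and 486 RPKM in tumour-adjacent lungs, against 975, 914, 938 and 1049 RPKM in healthy lungs. The sums did not overlap, with animal 3 nearest to the healthy lungs. Not all endothelial genes were called: the VE-cadherin gene Cdh5 (-0.37), Pecam1 (-0.45), Kdr (-0.24) and Calcrl (0.07) did not pass the test.

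Sox17, an endothelial transcription factor gene of the general list, had 5.28, 7.60, 8.99, 6.26 and 7.20 RPKM in tumour-adjacent lungs, against 10.2, 14.7, 15.4 and 18.0 RPKM in healthy lungs (-0.94 ± 0.17, limma, adjusted p = 0.0097). Of 22 VEGF, angiopoietin and Notch genes 5 fell and none rose, with a median of -0.36. Dll4, the endothelial Notch ligand gene, had 8.81, 5.46, 11.3, 5.45 and 7.64 RPKM in tumour-adjacent lungs, against 14.0, 18.3, 19.7 and 16.7 RPKM in healthy lungs (-1.09 ± 0.20, limma, adjusted p = 0.0096). The receptor gene Notch4 (-0.82 ± 0.13) and the Notch target Hey1 (-0.97 ± 0.22) fell as well, Hey1 not without tumour-adjacent animal 4 (limma, adjusted p = 0.051), and Vegfa, the main growth factor of the capillary bed, was not called (-0.08). Leaving out 1 library at a time gave 4 to 7 members of the list lower. None was called in limma with the prefix term or without the 3 libraries with Y-linked RNA (6 and 7 at an unadjusted p under 0.05). Pericyte genes, which mark the cells around capillaries, had a median of -0.55, and 3 of 7, Higd1b, Notch3 and Pdgfrb, fell; without healthy animal 3 Notch3 (adjusted p = 0.064) and Pdgfrb (adjusted p = 0.091) were not called, both in limma. Of 26 TGF-beta and BMP genes 5 fell, against 10.0% of all genes tested. The list had 3 lower without tumour-adjacent animal 4 or healthy animal 3, and 9 without tumour-adjacent animal 3. None was called in limma with the prefix term (4 at an unadjusted p under 0.05). Among the 5 were the endothelial BMP receptor gene Acvrl1 (-0.57 ± 0.13; adjusted p in limma 0.059 without healthy animal 3) and Ctgf, a matricellular gene with 41.7 to 69.8 RPKM in tumour-adjacent lungs, against 87.0 to 116 RPKM in healthy lungs (-0.91 ± 0.17, limma, adjusted p = 0.0098).

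In the tumour prefix contrast the medians were -0.11 for the capillary list and 0.03 for the general endothelial list. With the prefix term the capillary median was -0.53 with no member called in limma (6 at an unadjusted p under 0.05), and the general median was -0.56 with Sox17 called (-0.87, limma, adjusted p = 0.035). Without the 3 libraries with Y-linked RNA the capillary median was -0.41 with 2 members called. Leaving out 1 library at a time gave 5 (without healthy animals 2, 3 or 4) to 11 (without tumour-adjacent animal 3) capillary genes lower and 2 (without tumour-adjacent animals 2 or 4 or healthy animals 2 or 3) to 10 (without tumour-adjacent animal 3) general endothelial genes lower.

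**Figure D4:**
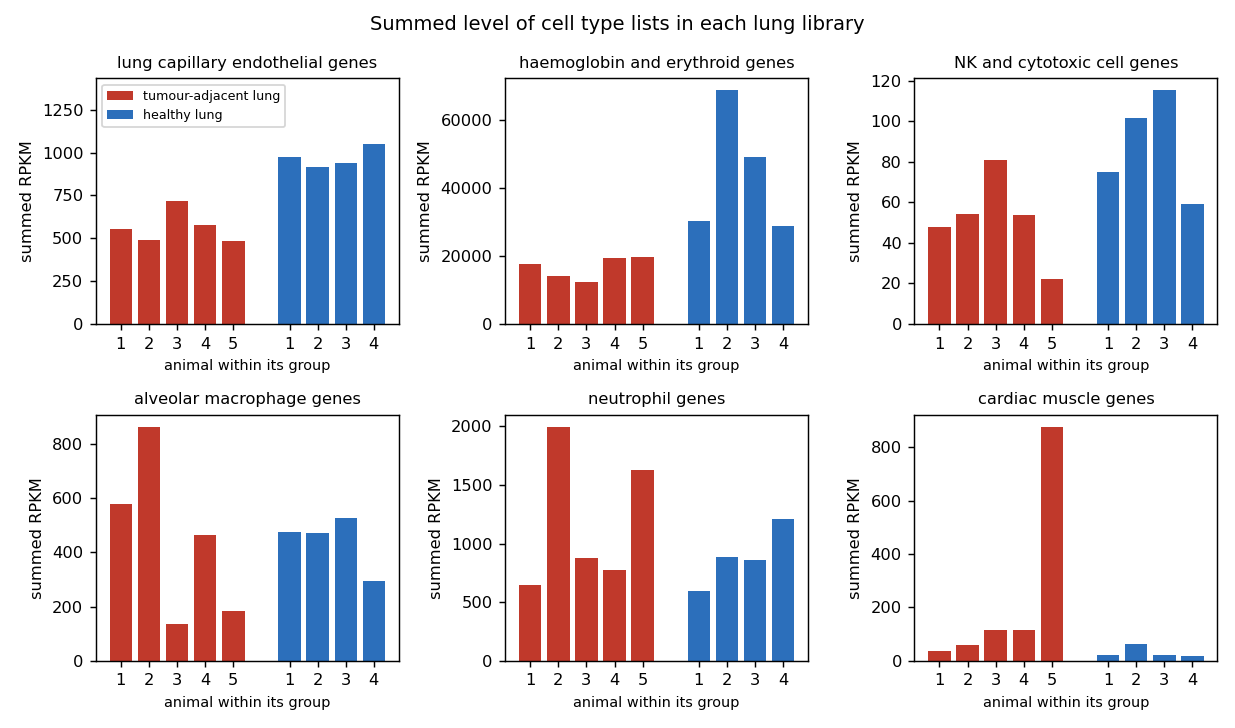
Summed RPKM of 6 cell type lists in each library (linear axes from 0; red, tumour-adjacent animals 1 to 5; blue, healthy animals 1 to 4). Capillary and haemoglobin sums are separate between the groups; alveolar macrophage sums are low in tumour-adjacent animals 3 and 5, neutrophil sums high in animals 2 and 5, and the cardiac sum of animal 5 is 876 RPKM.

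Of 20 haemoglobin and erythroid genes 9 were tested, of which 1 rose and 2 fell. Hbb-b1, a beta globin gene, had 3183, 2199, 1613, 2699.7 and 2182 RPKM in tumour-adjacent lungs, against 6923, 14518, 12718 and 5597 RPKM in healthy lungs (-1.99 ± 0.30, limma, adjusted p = 0.0059), and Hba-a2, an alpha globin gene, fell by 1.21, a call lost without healthy animal 3 (limma, adjusted p = 0.06). Within healthy lung, Hbb-b1 was highest in animals 2 and 3, and the lowest healthy lung was still above every tumour-adjacent one. With the prefix term both globins lost their call, Hbb-b1 at -0.47 and Hba-a2 at -0.98 (limma, adjusted p = 0.90 and 0.76), and so they did without the 3 libraries with Y-linked RNA, at -2.14 and -1.27 (limma, adjusted p = 0.063 and 0.13). Alas2, the haem synthesis gene of red cell precursors, was not called (-0.81), and the transferrin receptor gene Tfrc rose (0.65 ± 0.16), with calls lost in 4 of the leave-outs (limma, adjusted p up to 0.085 without healthy animal 3). Of 14 platelet genes 1 fell, Clec1b, where 10.0% of all genes tested fell, and 13 were negative. Clec1b, the gene of the platelet receptor CLEC-2, had 2.38 to 4.51 RPKM in tumour-adjacent lungs, against 5.44 to 11.3 RPKM in healthy lungs (-1.21 ± 0.20, limma, adjusted p = 0.0072). Globin genes of 1 family share sequence, and their reads may be split. Whether the lungs were perfused was not given in the sources used here.

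Most epithelial genes tested were not called, as was so over all genes. Sftpc, the surfactant protein C gene of type 2 cells, had 18356, 17018, 9044, 16587 and 6748 RPKM in tumour-adjacent lungs, against 13722, 10775, 12067 and 8282 RPKM in healthy lungs, and was not called (0.19). The type 1 marker Ager (0.29) and the club cell secretoglobin gene Scgb1a1 (0.22) were not called either. Medians of the type 2, type 1, club and ciliated lists were 0.32, 0.29, 0.30 and 0.14, with 3 members up and 1 down. Over all genes tested 3.59% were up and 10.0% down. Without animal 5, 5 of the 11 type 1 genes were higher, with a median of 0.49. Aqp5, a water channel gene of type 1 cells, had 187, 158, 188, 147 and 150.0 RPKM in tumour-adjacent lungs, against 128, 88.6, 95.2 and 70.3 RPKM in healthy lungs (0.81 ± 0.16, limma, adjusted p = 0.013), with a tumour prefix value of 0.52. Sec14l3, a lipid-binding protein gene of airway epithelium, rose to 654 to 846 RPKM in tumour-adjacent lungs, against 432 to 537 RPKM in healthy lungs (0.57 ± 0.10, limma, adjusted p = 0.0096). The keratin gene Krt8 had 86.6, 90.5, 95.5, 94.5 and 108 RPKM in tumour-adjacent lungs, against 63.4, 63.5, 65.0 and 63.4 RPKM in healthy lungs (0.56 ± 0.08, limma, adjusted p = 0.0044), and Krt18 and Krt7 rose by 0.41 and 0.66. Krt18 lost its call in 4 of the leave-outs (limma, adjusted p up to 0.075 without healthy animal 2). Krt7 lost its call in 7 of the 9 leave-outs (limma, adjusted p = 0.051 to 0.069).

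These keratins are the 3 genes that rose among 16 mammary epithelial and milk genes tested, of which Xdh and Spp1 fell. Xdh, highly expressed in milk-producing mammary epithelium, had 27.2, 21.0, 26.4, 25.5 and 17.0 RPKM in tumour-adjacent lungs, against 47.2, 48.6, 50.3 and 51.1 RPKM in healthy lungs, and fell (-1.06 ± 0.13, limma, adjusted p = 0.0032). Epcam was not called (0.21), and of 24 S phase and mitosis genes 1 fell and none rose, with Mki67 at -0.05 and Top2a at -0.07. The whey protein gene Wap was listed at 0 in all 5 tumour-adjacent lungs, against 0, 0, 0 and 24.2 RPKM in healthy lungs, and the casein gene Csn2 had at most 0.144 RPKM in tumour-adjacent lungs, against 0.232, 0.115, 0.274 and 14.7 RPKM in healthy lungs. The casein gene Csn3 had 2.17 RPKM in tumour-adjacent animal 5 and at most 0.222 RPKM in the other 4, against 0.474, 0.521, 1.90 and 2.43 RPKM in healthy lungs. Wap and Csn2 were thus above 1 RPKM in healthy animal 4 alone, whereas Csn3 was so in 1 tumour-adjacent and 2 healthy lungs.

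Among 24 genes named for the pre-metastatic lung that were tested, 1 rose and 1 fell, with a median of -0.15. The shares over all genes tested were 3.59% and 10.0%. None of 25 neutrophil genes was called in limma (1 at an unadjusted p under 0.05) or in limma's voom. S100a8, a neutrophil alarmin gene, had 56.0, 329.6, 35.0, 44.2 and 94.6 RPKM in tumour-adjacent lungs, against 24.3, 141, 117 and 110.2 RPKM in healthy lungs, and its partner S100a9 was not called (-0.12). Lcn2, the lipocalin 2 gene, had 38.6, 431, 25.6, 40.7 and 64.5 RPKM in tumour-adjacent lungs, against 23.1, 18.8, 28.9 and 58.2 RPKM in healthy lungs (1.12 ± 0.73, limma, adjusted p = 0.33). Animal 2 was highest for all 3 genes. The other 4 overlapped the healthy lungs for S100a8 and S100a9, and for Lcn2 animals 1, 3 and 4 did while animal 5 was just above them. Mmp9 (0.18), Fn1 (-0.20), Lox (0.20) and Saa3 (0.35), each reported in niche models, were not called. Tlr4, the receptor gene for S100a8 and S100a9, had 5.84, 5.39, 3.49, 5.51 and 3.73 RPKM in tumour-adjacent lungs, against 3.36, 2.97, 2.97 and 2.64 RPKM in healthy lungs (0.52 ± 0.14, limma, adjusted p = 0.039), a call lost in 7 of the 9 leave-outs (limma, adjusted p = 0.059 to 0.09), all but those of tumour-adjacent animals 3 and 5. Mmp2, a matrix metalloproteinase gene of fibroblasts, had 7.52 to 10.8 RPKM in tumour-adjacent lungs, against 21.0, 20.0, 19.5 and 10.5 RPKM in healthy lungs (-0.92 ± 0.19, limma, adjusted p = 0.015); its tumour prefix value was -1.48, and with the prefix term the lung value turned to 0.56.

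Alveolar macrophage genes varied widely among the tumour-adjacent animals. Ear2, a ribonuclease gene of alveolar macrophages, had 163, 225, 1.01, 131 and 4.89 RPKM in tumour-adjacent lungs, against 149.7, 158, 178 and 41.7 RPKM in healthy lungs (-1.70 ± 1.40, limma, adjusted p = 0.44), and Marco, a scavenger receptor gene of these cells, had 0.835, 6.56, 0.179, 1.71 and 0.177 RPKM in tumour-adjacent lungs, against 1.07, 1.40, 1.38 and 0.778 RPKM in healthy lungs. Animals 3 and 5 were far below all other lungs for both. Of 17 alveolar macrophage genes 2 fell, Spp1 and Car4, where 10.0% of all genes tested fell. Car4 is also a member of the lung capillary list and is counted there too. Of 21 interstitial macrophage and monocyte genes 5 fell, among them the monocyte receptor gene Ccr2 (-0.71 ± 0.19). Ccr2 lost its call in 7 of the 9 leave-outs, with limma adjusted p up to 0.083 without healthy animals 2 or 3.

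Of 20 cardiac muscle genes 12 passed the level filter and 1 was called. Of those 12, Sln, Pln, Csrp3, Myoz2 and Smpx passed it through tumour-adjacent lung, since they reached 1 RPKM in at most 1 healthy lung. Sln, which encodes the atrial calcium pump regulator sarcolipin, had 3.32, 7.19, 12.5, 17.2 and 81.6 RPKM in tumour-adjacent lungs, against 0.0567, 2.37, 0 and 0 RPKM in healthy lungs (3.43 ± 0.76, limma, adjusted p = 0.02); these levels rest on 34, 67, 122, 201 and 964 reads in tumour-adjacent lungs, against 1, 42, 0 and 0 reads in healthy lungs. Without healthy animals 1 or 3 the call of Sln was lost (limma, adjusted p = 0.051 and 0.058). The atrial light chain gene Myl7 had 9.78, 19.7, 16.6 and 112 RPKM in tumour-adjacent animals 2 to 5 and a lower level in animal 1 that overlapped the healthy lungs, which had 1.60, 6.99, 1.11 and 0.307 RPKM (2.77 ± 0.82, limma, adjusted p = 0.053). Nppa, an atrial peptide gene below the level filter, had 13.1 RPKM in animal 5, against at most 0.246 RPKM in the other 4 and at most 0.467 RPKM in healthy lungs. In mice, cardiac muscle also sheathes the pulmonary veins inside the lung. Without animal 5, 5 members were called, and limma's voom on all 9 libraries called none (7 at an unadjusted p under 0.05). The fat cell gene Adipoq had 6.51 RPKM in animal 5 as well, against 0 to 0.938 RPKM in the other 4 and 0.0710 to 0.414 RPKM in healthy lungs.

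The naming rule also gave genes outside these lists. Shfm1, which encodes the small acidic proteasome and BRCA2 partner DSS1, had 49.8, 52.3, 46.5, 41.8 and 52.4 RPKM in tumour-adjacent lungs, against 208, 168, 167 and 133 RPKM in healthy lungs (-1.77 ± 0.13, limma, adjusted p = 0.00026); it was also lower in RNA-coded tumours (-1.13, called). Wdr92 fell by 1.70 (adjusted p = 0.019) and Sycp3, a gene of the meiotic chromosome axis, rose by 1.24 (adjusted p = 0.0066), both in limma; Wdr92 lost its call without healthy animals 1 or 3 (limma, adjusted p = 0.051). Of the other 11 rule-named genes that no list above holds, all are short RNA rows: Mir703 and Mir3077 rose, and Mir24-2, Mir27b and 7 small nucleolar RNAs fell. Over all 68 small nucleolar RNA rows tested, 1 rose and 16 fell with a median of -0.75, and in the tumour prefix contrast none rose and 24 fell with a median of -0.82.

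**Figure D5:**
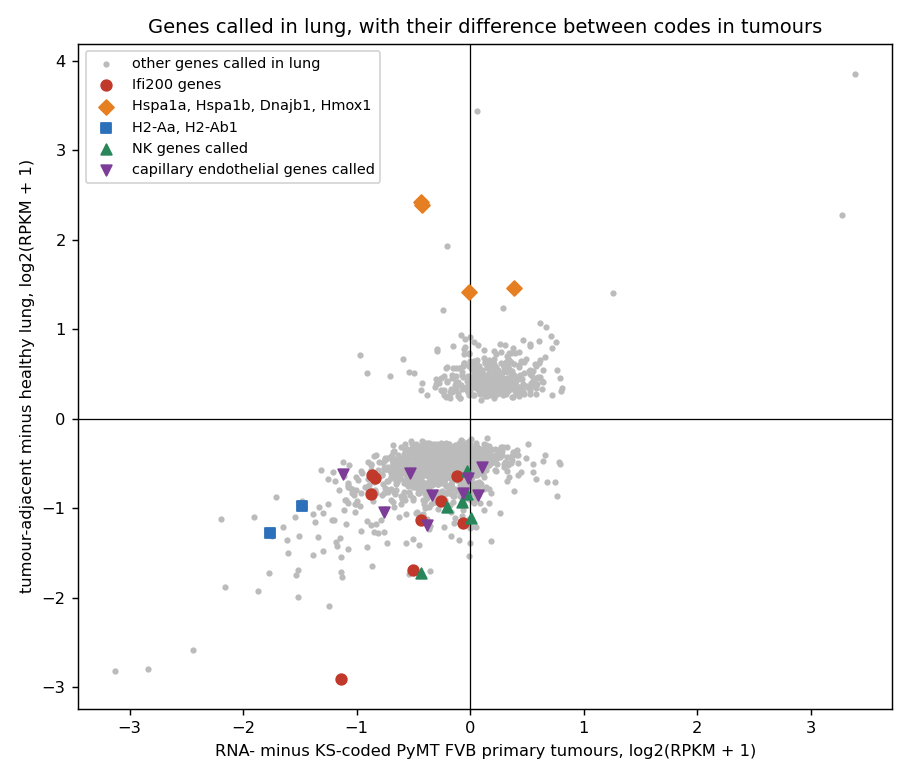
Genes called in lung, with the tumour-adjacent minus healthy lung difference (vertical) against the RNA-coded minus KS-coded difference in PyMT FVB primary tumours (horizontal), both log2(RPKM + 1), with Ifi200, stress, MHC class II, NK and capillary genes marked by colour and shape. Of these genes 81.4% have the same sign on both axes; Hspa1a, Hspa1b, Dnajb1 and Hmox1 lie high with tumour values of -0.43 to 0.39, the NK genes called low with tumour values of -0.43 to 0.01, and H2-Aa and H2-Ab1 low on both axes.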

How the data were processed

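The authors deposited a table of RPKM values for 20188 genes, and per the submitters' processing notes TopHat, DESeq2 and the mouse build mm9 were used, with no versions or roles given. Of its 335 sample columns, 286 were not used here. Genes with at least 1 RPKM in at least 4 of the 9 lung libraries were tested with limma 3.58.1 (R 4.3.3) on log2(RPKM + 1), with trend and robust moderation, 2-sided tests and Benjamini-Hochberg adjustment at 0.05; the method was tested on simulated data. RPKM steps gave whole reads, within 0.001, for 17345 of 17346 genes, from which counted reads per library were derived; limma's voom on those reads called 1699 genes. Depth limits genes near 1 RPKM most. Replicate numbers follow accession order and pair nothing, and no 2 libraries were identical. The naming rule took up to 15 genes per direction (adjusted p under 0.05, at least 2-fold, a mean of at least 5 RPKM, groups not overlapping, no predicted genes) and up to 4 called members of each of 56 lists. Members and lists were chosen with earlier results of these data known. Other settings left out libraries, changed the pseudocount, filter or scaling, or added a code prefix term.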

Additional observations from a re-analysis of the deposited data

Results flagged for a closer look

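For 59 genes named with a value in each library, 118 groups were searched for a single library far from the rest (Dixon's test at the 95% level), and 21 stood out. Chance gives about 1 in 20 groups for genes picked blind to their values. These genes were not picked so, and the same animals recur among them. The 21 are therefore no test against that share. Tumour-adjacent animal 5 was highest for the heart genes Sln (81.6 RPKM), Myl7 (112 RPKM) and Nppa (13.1 RPKM) and for the fat cell gene Adipoq (6.51 RPKM). Tumour-adjacent animal 2 was highest for S100a8 (329.6 RPKM), Lcn2 (431 RPKM), Marco (6.56 RPKM) and Aim2 (2.10 RPKM). Tumour-adjacent animal 3 was highest for Clec9a (7.97 RPKM) and lowest for Mx2 (0.784 RPKM).

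Among healthy lungs, animal 4 was highest for the milk genes Wap (24.2 RPKM) and Csn2 (14.7 RPKM), for Clec9a (21.2 RPKM), Hpgd (400.1 RPKM) and Sycp3 (9.39 RPKM), and lowest for Ncr1 (2.78 RPKM) and Mmp2 (10.5 RPKM). Healthy animal 1 was highest for Hspa1b (32.9 RPKM) and healthy animal 2 for Sln (2.37 RPKM). Healthy animal 3 was lowest for Ifi205 (5.08 RPKM) and highest for Krt8 (65.0 RPKM), in a group spread over less than 2 RPKM.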

How the results depend on the processing

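The 1639 calls became 489 without the 2 tumour-adjacent libraries whose names end in m, 164 without the 3 with Y-linked RNA, and 63 or 129 with a code prefix term from primary tumours or from tumours and metastases. In that order of settings there were 99, 47, 18 and 30 higher calls, 390, 117, 45 and 99 lower calls, 15, 15, 4 and 11 list members higher and 34, 13, 8 and 17 list members lower, against 433, 1206, 28 and 82. Leaving out 1 library gave 763 to 1737 calls, 144 to 625 higher, 619 to 1348 lower, and 10 to 42 list members higher and 42 to 100 lower; the lowest counts were without healthy animal 3. Median ratio scaling gave 684 and quantile normalization 685 higher calls, and a filter at 5 RPKM, which tests fewer genes, 787 lower calls. With the term from primary tumours the difference turned for Ifi205 (0.040), Mnda (0.24), Ifi202b (0.18), Mmp2 (0.56), H2-Aa (0.49), H2-Ab1 (0.51), Mir3077 (-0.999) and Mir27b (0.28). With the term from tumours and metastases it turned for H2-Aa (0.21), H2-Ab1 (0.084), Sec14l3 (-0.22), Mir3077 (-0.32) and Mir27b (0.56). The cause was not tested. Most animals in the fit from tumours and metastases gave both. Their profiles were entered as separate samples with no term for the animal, so its 129 calls do not rest on independent samples. The same holds for its differences that turned. Both prefix fits also take their spread from tumours, so a lost call need not mean a smaller difference. Fits without named libraries, prefix terms and voom were chosen after seeing the data. No paired analysis was possible because the replicate numbers follow accession order and no animal gave lungs to both groups.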

Other observations

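Among metabolic genes, 5 of 28 oxidative phosphorylation genes fell and none rose, although the list median was 0.06. Over all genes tested 10.0% fell and 3.59% rose, shares to set beside each list in this section. Sdhb, a subunit gene of succinate dehydrogenase, had 25.2, 30.7, 26.0, 25.9 and 31.2 RPKM in tumour-adjacent lungs, against 42.7, 39.9, 41.5 and 38.0 RPKM in healthy lungs (-0.53 ± 0.09, limma, adjusted p = 0.007), and the complex I gene Ndufa6 fell by 0.45. Of 24 sterol and fatty acid synthesis genes 2 rose, one of them the squalene epoxidase gene Sqle (0.52 ± 0.15), and 22 were positive; the call of Sqle was lost in 7 of the leave-outs (limma, adjusted p up to 0.1 without healthy animal 1). Of 17 Wnt and Hedgehog genes 3 fell; Nkd1, a Wnt target and inhibitor, had 12.7 to 18.8 RPKM in tumour-adjacent lungs, against 23.1 to 27.5 RPKM in healthy lungs (-0.69 ± 0.12, limma, adjusted p = 0.0071). Cyp1a1, the classical target of the aryl hydrocarbon receptor, had 0.823 to 3.26 RPKM in tumour-adjacent lungs, against 3.72 to 10.8 RPKM in healthy lungs (-1.39 ± 0.32, limma, adjusted p = 0.022), a call lost without tumour-adjacent animal 1 or healthy animal 1 (limma, adjusted p = 0.052 and 0.051).

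With genes not tested left out, genes called lower lay next to each other in 14 runs of at least 4. This was among the 11642 tested genes that could be placed, and no such run was of higher genes. Over all genes tested 10.0% were lower and 3.59% higher, and how many runs these shares would give was not worked out. The runs were looked for after the values were seen. The longest was the protocadherin alpha cluster with 14 genes, which share exons and so reads. Next came Dusp23 to Ifi205 with 10 tested genes, with genes that were not tested between Dusp23 and Aim2. Another held the NK receptor genes from Klre1 to Klrc1.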
